A study of Equus caballus with 23 samples.

Results

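The genes described here were low only at the end of the racing season in the gluteus medius of Arabian horses, a large hindquarter muscle that drives the gallop. They were chosen from their own measured levels by a rule on the group medians of log2 CPM (counts scaled to 1000000 per library) at 3 time points, T0, T1 and T2. A gene was kept if it was protein coding, had a symbol, spanned under 300000 bases, had a T1 median of at least 1.5, had T0 and T1 medians within 0.6 of each other, and had a T2 median at least 0.8 below both. The rule found 125 genes among 26991 in the table, of which 11545 passed the filter on low counts and 7199 met the limits of type, symbol, span and level. All 125 passed the filter, and they were 1.74% of the 7199. Because the rule used all 3 time points, the differences between time points are given for these genes as a description.

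Many of these genes encode regulators rather than parts of the contractile machinery. How common such roles are among the other genes tested was not counted. Chromatin regulators open or close genes to transcription, RNA-binding proteins set how long a messenger RNA lasts, and receptors, kinases and ubiquitin ligases pass on signals from outside the fibre. In muscle, Notch and its ligands act in vessels and satellite cells, mTOR complex signalling couples insulin and load to growth, and plectin and spectrin tie the sarcomere to the fibre membrane.

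RNA from needle biopsies was sequenced in 23 libraries. The untrained group, T0, was 2.5 years old (5 libraries, 3 labelled male and 2 female). T1 was sampled at 3 years, once intense gallop work was done and ahead of the season (8 libraries, 4 of each sex), and T2 at 3 years, once the flat racing season was over (10 libraries, 7 labelled male and 3 female). All were Arabian horses, and the labels do not say whether any horse gave more than 1 library, so each p-value reflects only the spread among the libraries. T0 alone was aged 2.5 years, so age and training cannot be told apart in a comparison with T0.

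Total counts were 12604125 to 17477172 at T0, 15417737 to 23641809 at T1 and 12185608 to 19804694 at T2. Mitochondrially encoded transcripts took 36% to 54.9%, 44.7% to 56.7% and 42.5% to 52.3% of them. No pair of libraries was identical, and the pairwise correlation of log2 CPM across genes was 0.909 to 0.98. The tissue label fitted the contractile genes: 14 of 15 slow fibre and 14 of 16 fast fibre symbols passed the filter. Symbols of the neutrophil, lymphocyte and erythroid marker lists were matched to no gene tested, so the levels of these markers were not analysed here. Library m3 (T1) stood apart with the highest slow minus fast fibre score, and libraries m16 and m17 (T2) had the lowest levels of the genes described here, so results are also given without them.

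By the rule, the medians of the 125 genes at T0 and T1 lay within 0.6 of each other and those at T2 were lower. The T2 median lay below the lower of the other medians by 0.80 to 1.51 on the log2 scale, with a middle value of 0.93, and by at least 1 in 37 genes. The difference of T1 and T0 medians ran from -0.59 to 0.55, with a middle value of 0.04. In the fitted model, the median difference over the 125 genes was -0.97 (range -1.67 to -0.50) against T1 at the season's end, -0.98 (range -2.64 to -0.49) against T0, and 0.01 (range -1.22 to 1.17) between T1 and T0, beside -0.01, -0.03 and -0.02 over all 11545 genes tested. In bulk tissue, fewer cells of a type and less RNA per cell cannot be told apart. The opposite pattern, T2 above both by the same limits, was met by 9 genes. The lower limit on the T1 median removes genes that rise from a low level, so the 9 and the 125 are not compared. Just inside the threshold stood NCOA2, PPM1F and ASH1L, whose T2 medians were 0.8014, 0.8026 and 0.8039 below, and just outside it stood RAI1, ATP11A and ACACA, at 0.7985, 0.7976 and 0.7973.

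**Figure D1:**
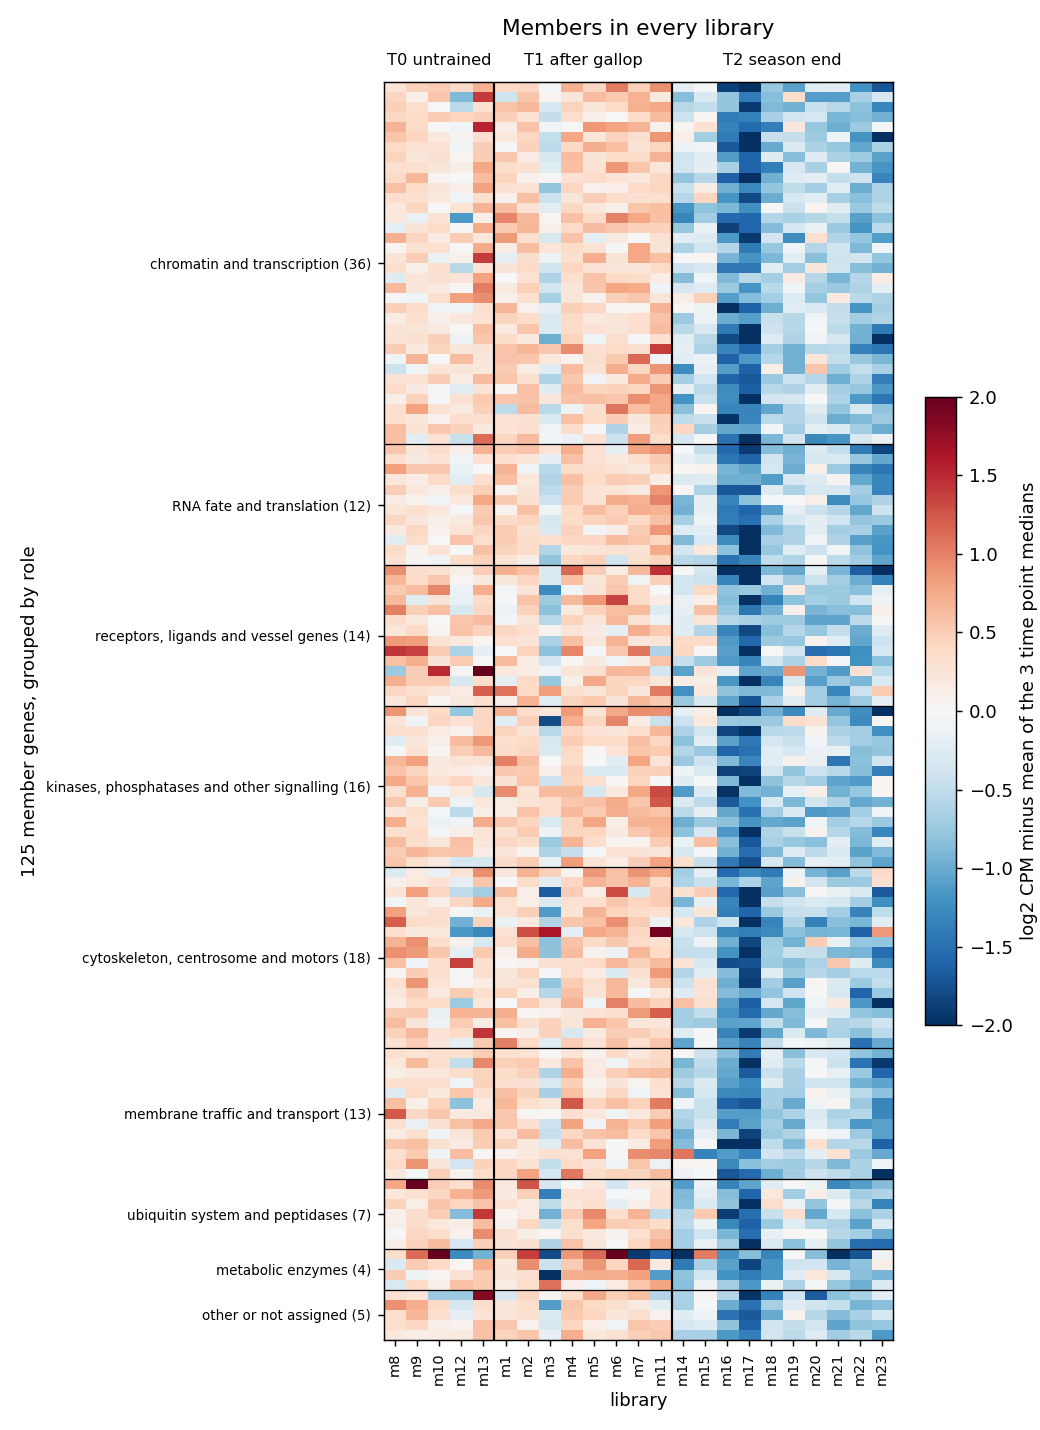
Log2 CPM of each of the 125 genes (vertical axis, grouped by role) in each of the 23 libraries (horizontal axis, ordered T0, T1, T2), centred on the mean of the gene's 3 group medians. The T2 columns are low over most genes, lowest in m17 and m16, and the T1 column m3 is lower than the other T1 columns.

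At an adjusted p below 0.05 (edgeR quasi-likelihood test, Benjamini-Hochberg), 115 of the 125 were lower in T2 than in T1, where 15.1% of all genes tested were lower. Likewise 115 were lower in T2 than in T0, where 9.3% of all genes were, and 109 were lower in both, where 5.53% were. These counts follow from the rule, and nothing is read from them. AK4, FBXL18, NUAK1 and MAP1B passed in neither comparison. Between T0 and T1, ZFHX4, a zinc-finger and homeobox transcription factor, was higher at T1 (log2 difference 0.70 ± 0.21, adjusted p = 0.0484, edgeR), and no gene was lower, where 6.91% of all genes tested changed in either direction. The count was again 1 in 8 of 23 refits without a single library and 0 in the rest. The rule kept only genes whose T0 and T1 medians lay close together, so a low count in this comparison follows from it too. Nothing is read from that count beside the 6.91%, and the adjusted p of ZFHX4 is given as a description only.

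In 12 of the 125 genes every T2 library was below every T0 and T1 library, a separation found in 0.346% of genes tested. These were AFF4, PHACTR2, PHIP, LRP6, PRRC2B, PTPN4, QSER1, BBX, PTCH1, SETD1B, PCNX and LYST. The rule favours such a separation, and the 12 are counted within the 0.346%, so nothing is read from the difference in shares. T0 values are listed throughout in the order of libraries m8, m9, m10, m12 and m13, and the other groups by their lowest, highest and median library. LRP6, a co-receptor for Wnt ligands, stood at 7.203, 5.89, 6.57, 4.66 and 5.11 CPM in the T0 libraries, 3.68 to 6.88 (median 5.698) at T1 and 0.962 to 3.42 (median 2.698) at T2. PTCH1, the receptor for Hedgehog ligands, stood at 4.01, 4.46, 3.52, 5.08 and 4.72 CPM in the T0 libraries, 2.96 to 5.68 (median 4.18) at T1 and 0.881 to 2.85 (median 2.097) at T2. PHIP, a chromatin reader that also binds insulin receptor substrate, stood at 8.68, 6.93, 8.31, 7.097 and 7.31 CPM in the T0 libraries, 7.47 to 16.02 (median 8.92) at T1 and 1.92 to 5.32 (median 3.39) at T2. No T2 value of LRP6, PTCH1 or PHIP reached the lowest earlier value, and the library m17 was the lowest for each. In 48 of the 125 genes at least 8 of the 10 T2 libraries were below all others, in 103 at least 5 were, and in 3 none was.

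**Figure D2:**
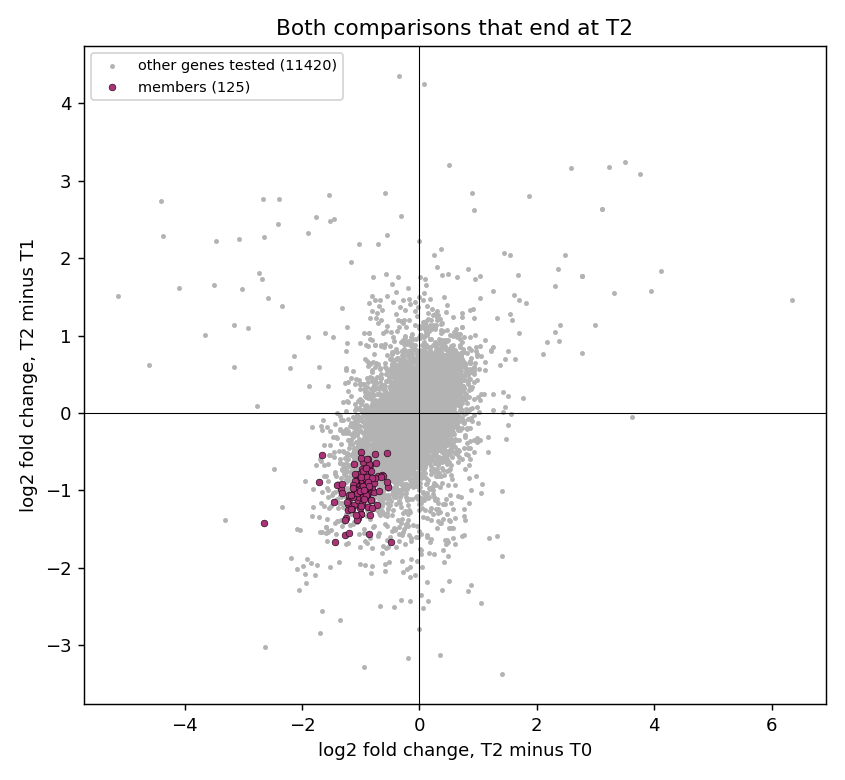
Log2 fold change of T2 minus T0 (horizontal axis) and of T2 minus T1 (vertical axis) for the genes described here and all other genes tested; each point is 1 gene. Both axes share the T2 libraries, and the 125 genes fill the lower left because the rule placed them there, with values from -2.64 to -0.49 and from -1.67 to -0.50.

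The largest fall was that of RICTOR, the defining subunit of mTOR complex 2, which phosphorylates AKT downstream of the insulin receptor (chromosome 21, 26718389 to 26793239; the sources used here name no genome build for any coordinate). RICTOR stood at 5.93, 3.84, 4.21, 1.801 and 4.27 CPM in the T0 libraries, 3.76 to 6.13 (median 5.31) at T1 and 0.517 to 3.45 (median 1.41) at T2. Of the 10 T2 libraries, 7 were below every earlier library, and the log2 difference was -1.57 ± 0.27 against T1 and -1.26 ± 0.30 against T0. SCD, the desaturase that makes monounsaturated fatty acids, stood at 3.48, 5.98, 43.5, 1.06 and 1.35 CPM in the T0 libraries, 0.619 to 13.4 (median 4.39) at T1 and 0.316 to 5.58 (median 1.28) at T2. Its ranges overlapped widely and 1 T0 library, m10, was far above the rest. The difference of SCD was -1.42 ± 0.73 against T1 and -2.64 ± 0.79 against T0, and the latter was -0.75 without m10.

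AFF4, the scaffold of the super elongation complex that releases paused RNA polymerase, stood at 12.9, 14.7, 15.1, 13.9 and 17.3 CPM in the T0 libraries, 10.4 to 21.6 (median 14.6) at T1 and 2.08 to 10.4 (median 5.65) at T2. All 10 T2 libraries were below every T0 and T1 library, the closest being m15 at 10.41 and T1 library m3 at 10.42, and the difference was -1.35 ± 0.24 against T1 and -1.24 ± 0.27 against T0. LIFR, the receptor for leukaemia inhibitory factor, stood at 15.96, 10.7, 10.4, 9.21 and 11.7 CPM in the T0 libraries, 6.92 to 23.2 (median 12.9) at T1 and 1.12 to 8.36 (median 4.195) at T2. It was lower in 8 T2 libraries than in any earlier one and differed by -1.67 ± 0.29 against T1 and -1.43 ± 0.33 against T0. RC3H1 (roquin), which binds stem-loops in messenger RNAs and starts their decay, stood at 9.004, 7.12, 7.89, 6.67 and 9.89 CPM in the T0 libraries, 5.26 to 11.4 (median 8.899) at T1 and 1.52 to 5.89 (median 3.16) at T2. Here 9 of 10 T2 libraries were below all others, with a difference of -1.38 ± 0.21 against T1 and -1.28 ± 0.24 against T0.

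NT5C1A, the cytosolic nucleotidase of muscle that turns AMP into adenosine, stood at 20.8, 36.8, 34.1, 26.3 and 42.4 CPM in the T0 libraries, 19.1 to 57.01 (median 35.6) at T1 and 7.13 to 28.2 (median 14.05) at T2. The separation was incomplete, since 3 T2 libraries reached into the earlier range, and the difference was -1.31 ± 0.23 against T1 and -1.07 ± 0.25 against T0. BAHCC1, a chromatin protein that reads histone methylation, stood at 9.04, 7.17, 9.94, 3.601 and 17.9 CPM in the T0 libraries, 5.03 to 10.9 (median 8.84) at T1 and 2.48 to 8.71 (median 3.78) at T2. Library m13 was the high T0 value of BAHCC1, and 3 T2 libraries were below all others. PEG3, an imprinted zinc-finger gene expressed from the paternal copy, stood at 17.3, 21.9, 15.4, 19.7 and 22.9 CPM in the T0 libraries, 18.6 to 30.5 (median 23.7) at T1 and 3.93 to 15.8 (median 8.71) at T2. Of its T2 values, 9 were below every earlier library, and the difference was -1.38 ± 0.19 against T1 and -1.06 ± 0.21 against T0.

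LNPEP, the insulin-regulated aminopeptidase that travels with the glucose transporter GLUT4, stood at 9.62, 7.02, 9.57, 11.7 and 13.2 CPM in the T0 libraries, 5.69 to 13.8 (median 11.2) at T1 and 2.85 to 6.58 (median 4.27) at T2. Its T2 values were below all earlier ones in 8 libraries, with a difference of -1.24 ± 0.17 against T1 and -1.17 ± 0.20 against T0. RNF213, a very large ubiquitin ligase linked to vessel disease, stood at 11.1, 27.1, 9.15, 8.26 and 12.6 CPM in the T0 libraries, 4.95 to 15.5 (median 7.36) at T1 and 2.501 to 6.39 (median 3.27) at T2. T0 was its highest time point, m9 above the other T0 libraries, and the difference was -0.90 ± 0.26 against T1 and -1.72 ± 0.29 against T0. HSPG2 (perlecan), the heparan sulfate proteoglycan of basement membranes, stood at 176, 153, 156, 86.5 and 140.0 CPM in the T0 libraries, 63.7 to 183 (median 135) at T1 and 25.4 to 119 (median 61.4) at T2. The ranges of HSPG2 overlapped, with m3 the low T1 library and m14 the high T2 library, and 5 T2 libraries were below all others. HELZ2, a helicase that coactivates nuclear receptors, stood at 4.26, 5.98, 4.21, 3.81 and 4.72 CPM in the T0 libraries, 2.28 to 7.199 (median 4.75) at T1 and 1.28 to 3.45 (median 1.89) at T2, with T2 below all earlier values in 7 libraries.

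**Figure D3:**
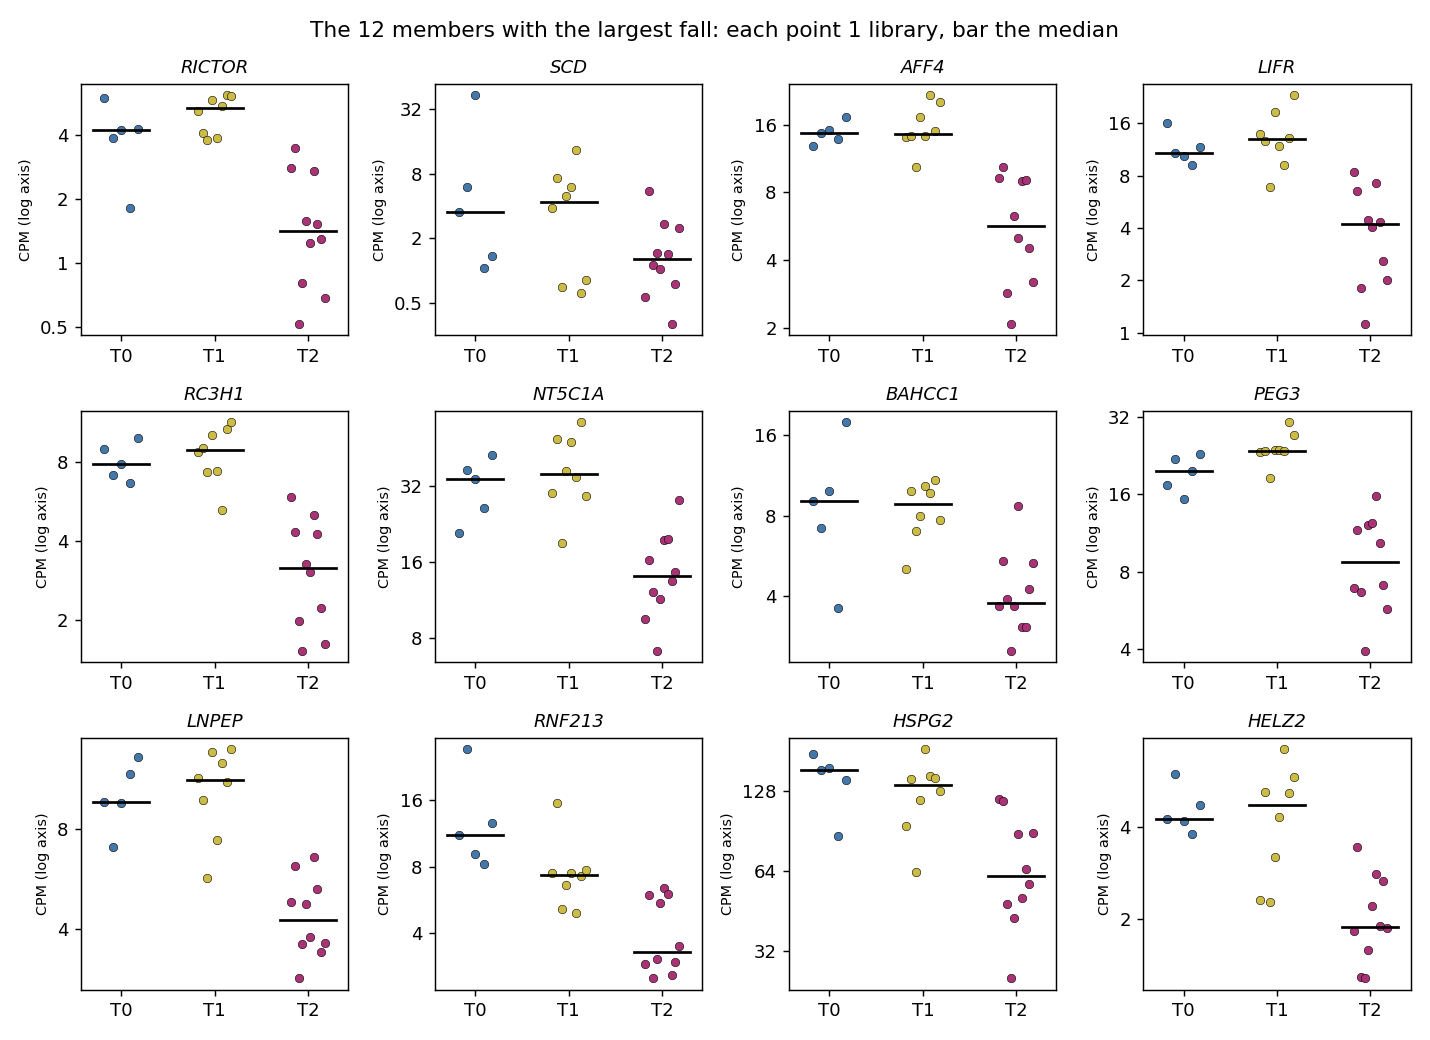
CPM on a log axis (vertical) at T0, T1 and T2 (horizontal) for the 12 genes with the largest fall; each point is 1 library and each bar the group median. The T2 points of AFF4 lie below all others, the ranges of SCD overlap widely, and the SCD T0 library at 43.5 CPM stands far above the other T0 points.

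The largest role group, with 36 genes, acts on chromatin and transcription, and its median log2 difference was -0.99 against T1 and -1.01 against T0. Roles were assigned from general knowledge after the names were known, and their shares among other genes were not counted. The group held histone methyltransferases and their partners (KMT2A, SETD1B, ASH1L, ASXL2), remodelling subunits (EP400, CECR2, PBRM1), the demethylase KDM7A, the Mediator kinase-module subunit MED13, and sequence-specific factors such as REST, NFIX, CASZ1, ZFHX3, FOXN2, FOXN3 and FOXO3. KMT2A, which methylates histone H3 lysine 4, stood at 18.5, 17.9, 19.8, 18.6 and 19.3 CPM in the T0 libraries, 9.89 to 21.6 (median 17.3) at T1 and 5.17 to 14.2 (median 8.24) at T2. Its T0 values were tightly grouped and all above every T2 value, and 2 T1 libraries, m3 the lower of them, reached the T2 range. The difference of KMT2A was -0.92 ± 0.16 against T1 and -1.10 ± 0.18 against T0.

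SETD1B, another lysine 4 methyltransferase, stood at 3.39 to 5.73 (median 4.18) CPM at T0, 3.27 to 5.85 (median 4.11) at T1 and 1.202 to 3.22 (median 2.23) at T2, without overlap. ASH1L, which methylates histone H3 lysine 36, stood at 31.4 to 36.3 (median 34.1) CPM at T0, 23.8 to 43.2 (median 37.3) at T1 and 13.5 to 27.98 (median 19.5) at T2, with 8 T2 libraries below all others. EP400, the ATPase of the TIP60 complex that exchanges histone variants, stood at 13.5 to 19.95 (median 17.2) CPM at T0, 9.804 to 23.4 (median 18.9) at T1 and 3.37 to 13.4 (median 8.65) at T2. NFIX, which shapes the fetal myogenic programme, stood at 43.7 to 90.5 (median 62.3) CPM at T0, 33.7 to 76.96 (median 64.2) at T1 and 27.7 to 58.2 (median 35.1) at T2, and its groups overlapped more, with 4 T2 libraries below all others. CASZ1, a zinc-finger factor, stood at 13.5 to 26.98 (median 15.6) CPM at T0, 10.2 to 22.97 (median 16.9) at T1 and 5.77 to 12.4 (median 8.85) at T2. BDP1, a subunit of the initiation factor TFIIIB of RNA polymerase III, stood at 11.4 to 17.48 (median 15.2) CPM at T0, 11.3 to 24.7 (median 18.4) at T1 and 4.25 to 12.03 (median 8.65) at T2, and TNRC18, a chromatin-associated protein, at 2.65 to 8.32 (median 3.702) CPM at T0, 2.71 to 5.196 (median 3.67) at T1 and 0.881 to 3.45 (median 1.64) at T2. For both, T2 was the lowest time point by its median, and m17 was the lowest library.

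Among a wider list of 39 chromatin regulators, 34 were tested and 4 were members (KMT2A, SETD1B, ASH1L and EP400). In the list, 15 of 34 were lower and 0 higher in T2 than in T1, and 13 were lower and 0 higher in T2 than in T0, with median differences of -0.33 and -0.39. The 4 members, which the rule chose for being low at T2, are among both the 15 and the 13. Over all genes tested, 15.1% were lower and 12.5% higher than at T1, and 9.3% lower and 6.73% higher than at T0. Among those outside the 125 genes, CHD6 was lower than at T1 (-0.81 ± 0.15, adjusted p = 3.3e-04), and CHD9, a remodeller of the same family, was lower than at T0 (-0.96 ± 0.19, adjusted p = 0.00369; edgeR). Of 27 nuclear receptors and coregulators, 12 were lower and 1 higher than at T1, and 6 were lower and 0 higher than at T0. The member NCOA2, chosen by the rule, is among both the 12 and the 6. NCOA2, the steroid receptor coactivator in this list, stood at 9.85 to 14.7 (median 11.4) CPM at T0, 7.97 to 14.9 (median 12.05) at T1 and 1.76 to 9.39 (median 6.51) at T2. PPARA, a fatty-acid-sensing receptor outside the 125, was lower than at T1 (-1.69 ± 0.23, adjusted p = 1.7e-05) and at T0 (-0.90 ± 0.25, adjusted p = 0.0208; edgeR).

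CLOCK, the histone acetyltransferase partner of BMAL1, stood at 4.45 to 6.97 (median 5.93) CPM at T0, 2.36 to 6.52 (median 5.73) at T1 and 0.812 to 4.54 (median 3.16) at T2. Its differences were -0.88 ± 0.26 against T1 and -1.07 ± 0.29 against T0, and 3 T2 libraries were below every earlier one. Of 17 tested clock genes, 5 were lower and 3 higher than at T1, and 3 were lower and 1 higher than at T0, with median differences of -0.18 and -0.01. CLOCK itself, chosen by the rule, is among the lower genes in both comparisons. TEF, an output factor of the clock, was lower than at T0 (-0.74 ± 0.16, adjusted p = 0.00534), while CIART, a repressor of the CLOCK complex, was higher (1.61 ± 0.45, adjusted p = 0.0205; edgeR). The labels used here give no time of day for the biopsies, and its part in these values was not tested.

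A set of 12 genes acts on RNA fate and translation, and their median log2 difference was -0.97 against T1 and -0.95 against T0. Besides RC3H1 it held its paralogue RC3H2, the exonuclease XRN1, the GW-repeat protein TNRC6B of microRNA silencing, PTBP3, PRRC2B, PRRC2C and ZC3H12C. ZNF106, an RNA-binding zinc-finger protein of muscle and motor neurons, stood at 274, 413, 324, 477 and 409 CPM in the T0 libraries, 403 to 492.5 (median 431) at T1 and 78.9 to 308 (median 191) at T2. In ZNF106, 9 of the T2 libraries were below all others and T1 was narrow, and the difference was -1.23 ± 0.18 against T1 and -1.01 ± 0.20 against T0. XRN1, which degrades decapped RNA from its end, stood at 8.57 to 11.1 (median 10.1) CPM at T0, 5.43 to 14.3 (median 9.42) at T1 and 2.32 to 8.04 (median 5.06) at T2. A list of 25 tested splicing and RNA-binding genes held no member. In it, 7 were higher and 2 lower than at T1, and 1 was higher and 2 lower than at T0.

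Receptors, ligands and vessel genes made up 14 of the 125, with median log2 differences of -0.88 against T1 and -0.99 against T0, and 9 of the 14 passed in both comparisons. Notch signalling was represented by 2 receptors and 1 ligand. NOTCH1 stood at 19.6, 10.5, 14.8, 11.1 and 16.02 CPM in the T0 libraries, 7.53 to 31.7 (median 17.2) at T1 and 1.76 to 13.7 (median 7.49) at T2. DLL4, its endothelial ligand, stood at 10.3, 9.21, 8.04, 11.8 and 12.3 CPM in the T0 libraries, 5.43 to 12.6 (median 9.497) at T1 and 3.77 to 9.47 (median 5.198) at T2. NOTCH3, the receptor of pericytes and vascular smooth muscle, stood at 22.02, 15.2, 16.6, 8.69 and 14.5 CPM in the T0 libraries, 6.13 to 16.8 (median 13.6) at T1 and 3.93 to 16.4 (median 6.19) at T2. In all 3, T2 overlapped the earlier time points, and 5 or 6 of the T2 libraries were below all others. The difference was -1.12 ± 0.27 against T1 and -0.82 ± 0.31 against T0 for NOTCH1, and the latter missed the threshold (adjusted p = 0.0691, edgeR). For DLL4 it was -0.67 ± 0.17 against T1 and -0.84 ± 0.19 against T0. For NOTCH3 it was -0.60 ± 0.25 against T1 and -0.89 ± 0.28 against T0, and the former missed it (adjusted p = 0.0723, edgeR).

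LRP1, an endocytic receptor that clears lipoproteins and proteases, stood at 33.2, 35.4, 45.6, 21.2 and 38.4 CPM in the T0 libraries, 9.45 to 33.7 (median 25.3) at T1 and 11.8 to 30.5 (median 13.7) at T2. T0 was higher than T1 by its median, no T2 library was below all others, and the difference was -0.50 ± 0.21 against T1 and -1.002 ± 0.24 against T0. The vessel genes CD93, a lectin-like receptor of endothelium, VASH1, an endothelial tubulin carboxypeptidase, and F8, coagulation factor VIII, were also in the group, with IGFBP5, which binds insulin-like growth factors, and NDST1, which sulfates heparan chains. Of 19 tested genes of angiogenesis and hypoxia, 6 were lower and 0 higher than at T1, and 2 were lower and 1 higher than at T0. The members DLL4 and NOTCH1, chosen by the rule, are among the 6, and DLL4 is among the 2. PDGFB, the endothelial ligand that recruits pericytes, was lower than at T1 (-0.91 ± 0.18, adjusted p = 6.0e-04), and VEGFB was higher than at T0 (0.56 ± 0.17, adjusted p = 0.0258; edgeR).

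Of 10 endothelial markers, 8 were tested, and 0 passed the edgeR test in T2 minus T1 or T2 minus T0, and their summed level was 208 to 319.6 CPM at T0, 181 to 258 at T1 and 159 to 252 at T2. Of 9 smooth muscle and pericyte markers, 8 were tested. In T2 minus T1, 2 were higher and 1 lower, and in T2 minus T0, 3 were lower and 0 higher. NOTCH3, chosen by the rule, is among the 3, and RGS5 was lower in both (-0.65 ± 0.16, adjusted p = 0.00434 and -0.82 ± 0.18, adjusted p = 0.00624; edgeR). By group medians, MYH11, ACTA2, TAGLN, LMOD1 and KCNJ8 were higher at T2 than at T1, and RGS5, PDGFRB and NOTCH3 lower. The median log2 difference of the tested markers was 0.62 against T1 and -0.80 against T0. Their sum was 143 to 476 CPM at T0, 89.4 to 161 at T1 and 111 to 239 at T2. Of 10 fibroblast markers, 8 were tested, and 0 passed in either comparison, with sums of 108 to 413, 73.5 to 184 and 90.8 to 308 CPM. PDGFRA and MFAP5 of that list, and EMCN and CLDN5 of the endothelial list, were not among the named genes tested. Other marker lists were tested in small part: of macrophage markers (5 of 9 tested) 1 was lower than at T1, of adipocyte markers (3 of 8) only SCD was lower than at T0, of satellite cell and myoblast markers (4 of 9) MYOG was lower in both, TYRP1 (1 of 7 skin markers tested) was lower than at T1, and MBP (1 of 9 Schwann cell and nerve markers) was higher than at T1 (edgeR). The part of these cell types in the levels of the 125 genes was not tested.

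Kinases, phosphatases and other signalling proteins made up 16 genes, with medians of -1.01 and -0.97 against T1 and T0. HIPK3, a nuclear serine-threonine kinase, stood at 95.8, 131, 122, 173 and 206 CPM in the T0 libraries, 89.9 to 171 (median 148) at T1 and 41.8 to 109 (median 73.9) at T2. All but 2 T2 libraries were below every earlier one, and the difference was -0.94 ± 0.16 against T1 and -0.95 ± 0.18 against T0. ARHGEF12, an exchange factor that activates RHOA below G-protein-coupled receptors, stood at 49.5, 51.6, 39.01, 42.9 and 47.8 CPM in the T0 libraries, 37.03 to 62.8 (median 53.4) at T1 and 7.53 to 41.97 (median 24.1) at T2, with 9 T2 libraries below all others. NUAK1, a kinase of the AMPK family, stood at 5.77, 4.604, 6.57, 5.93 and 6.46 CPM in the T0 libraries, 1.31 to 9.63 (median 5.92) at T1 and 1.94 to 6.28 (median 3.23) at T2. No T2 value of NUAK1 was below all others, T1 library m3 being the lowest of the 23, and the difference was -0.52 ± 0.26 against T1 and -0.55 ± 0.30 against T0. The group also held the DNA-damage kinase ATM, the bone-morphogenetic signal transducer SMAD5, the phosphatase PTPN4, TAB3, which activates TAK1, and AMER1, a Wnt regulator that binds APC.

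Of 25 tested genes of insulin, IGF and mTOR signalling, 11 were lower and 1 higher than at T1, and 7 were lower and 0 higher than at T0, with medians of -0.32 and -0.38. RICTOR and FOXO3 were the members of the list among the 125. Chosen by the rule, RICTOR is among the 11, and both are among the 7. FOXO3, the transcription factor that AKT keeps out of the nucleus, stood at 8.69 to 17.53 (median 11.7) CPM at T0, 5.78 to 13.4 (median 10.9) at T1 and 4.23 to 12.8 (median 6.103) at T2, with a difference of -0.52 ± 0.20 against T1 and -0.76 ± 0.23 against T0. The insulin receptor INSR was lower than at T1 (-1.18 ± 0.21, adjusted p = 3.7e-04), and the receptor IGF1R was lower than at T0 (-0.85 ± 0.19, adjusted p = 0.00642; edgeR). Neither INSR nor IGF1R met the rule.

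Cytoskeleton, centrosome and motor genes made up 18 genes, with medians of -0.93 and -0.90. PLEC (plectin), which links desmin filaments to the Z-disc and the membrane, stood at 287, 386, 313, 426 and 653 CPM in the T0 libraries, 358 to 641 (median 538) at T1 and 117 to 449.6 (median 198) at T2. Most T2 libraries were low, 7 of them below all others, and m23 reached 449.6 CPM within the earlier range, and the difference was -1.22 ± 0.23 against T1 and -0.88 ± 0.25 against T0. SPTB, the beta-spectrin of erythrocytes and of the muscle membrane, stood at 129, 139, 147, 106 and 177 CPM in the T0 libraries, 104 to 193 (median 159) at T1 and 57.8 to 152 (median 78.04) at T2, with 8 T2 libraries below all others. KIF1B, a kinesin that carries mitochondria and vesicles, stood at 56.1, 69.1, 62.8, 77.96 and 98.9 CPM in the T0 libraries, 47.4 to 85.2 (median 73.1) at T1 and 11.1 to 52.6 (median 39.3) at T2. Its lowest T2 value was in m17 and its difference was -1.002 ± 0.20 against T1 and -1.02 ± 0.23 against T0. MAP1B, a microtubule-binding protein of growing neurites and regenerating fibres, stood at 2.304 to 6.83 (median 4.58) CPM at T0, 1.14 to 9.63 (median 4.76) at T1 and 0.721 to 5.43 (median 2.61) at T2, and RAPH1 (lamellipodin), which guides actin polymerization, at 5.99 to 7.52 (median 6.63) CPM at T0, 3.501 to 8.304 (median 6.27) at T1 and 1.66 to 6.32 (median 3.54) at T2. Both overlapped between time points.

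In a list of 29 tested genes of the dystrophin complex, the costamere and the giant sarcomere proteins, 13 were lower and 2 higher than at T1, and 11 were lower and 0 higher than at T0, with medians of -0.22 and -0.30. PLEC and SPTB were the members in it and, chosen by the rule, are among both the 13 and the 11. UTRN (utrophin), the relative of dystrophin, was lower than at T1 (-0.96 ± 0.18, adjusted p = 3.6e-04) and at T0 (-1.13 ± 0.20, adjusted p = 0.00161). LAMC1, a laminin chain of the basement membrane, was lower than at T0 (-0.70 ± 0.14, adjusted p = 0.00421; edgeR).

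Membrane traffic and transport took 13 genes, with medians of -1.04 and -0.94. They included EEA1, the tether of early endosomes, STON2, an endocytic adaptor, 3 DENND exchange factors for RAB proteins, ATP7A, the copper pump, ABCA1, the cholesterol exporter, and LYST, which governs lysosome size. LYST stood at 7.33, 4.13, 4.52, 3.495 and 3.597 CPM in the T0 libraries, 2.92 to 4.53 (median 3.59) at T1 and 1.19 to 2.51 (median 1.96) at T2. EEA1 stood at 21.8, 20.98, 21.5, 21.5 and 24.5 CPM in the T0 libraries, 17.1 to 22.8 (median 21) at T1 and 6.49 to 17.47 (median 11.5) at T2. T2 and the earlier groups of LYST did not meet, and those of EEA1 met at a single T2 library. NBEAL1, a BEACH-domain protein, stood at 2.33 to 6.43 (median 4.72) CPM at T0, 4.99 to 10.1 (median 6.12) at T1 and 1.202 to 4.37 (median 2.55) at T2, with 4 T2 libraries below all others.

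The ubiquitin system and peptidases took 7 genes, with medians of -0.77 and -0.97. MDM4, the p53 inhibitor, stood at 2.01 to 4.05 (median 3.61) CPM at T0, 1.66 to 4.29 (median 3.17) at T1 and 0.561 to 2.37 (median 1.51) at T2, and FBXL18, an F-box subunit of ubiquitin ligases, at 1.69 to 8.65 (median 4.08) CPM at T0, 1.58 to 6.31 (median 3.82) at T1 and 0.776 to 4.59 (median 2.04) at T2. Of 4 metabolic enzymes, SCD and NT5C1A are given above. AK4, the adenylate kinase of the mitochondrial matrix, stood at 24.3, 15.9, 17.9, 20.97 and 24.5 CPM in the T0 libraries, 0.525 to 30.4 (median 25.1) at T1 and 6.41 to 19.9 (median 9.62) at T2. No T2 value of AK4 was below all others, because T1 library m3 held 0.525 CPM, and its difference was -0.91 ± 0.38 against T1 and -0.89 ± 0.43 against T0. DHTKD1, a dehydrogenase of lysine breakdown, stood at 6.38 to 11.97 (median 10.4) CPM at T0, 7.42 to 17.1 (median 9.56) at T1 and 3.53 to 7.71 (median 4.99) at T2. The other 5 of the 125 (IRGQ, PDZD2, TTC28, BTBD7 and PCNX) were put in no role group.

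Further lists held no member. Of 14 slow fibre genes, 11 were lower and 0 higher than at T1, and of 15 identifiers of fast fibre genes, 11 were higher and 0 lower, while against T0 these were 0 lower and 1 higher, and 0 and 0. Among 21 tested genes that take up or oxidize fatty acids, 13 were lower and 1 higher than at T1, and 1 was lower and 3 higher than at T0. Glucose uptake and glycogen genes (25 tested) were 9 higher and 4 lower than at T1, and 1 and 2 against T0. Calcium handling (28 tested) counted 4 higher and 5 lower, then 0 and 4. Muscle-wasting ubiquitin ligases and autophagy (20) counted 1 higher and 4 lower, then 1 and 2. Extracellular matrix (24) counted 1 higher and 0 lower, then 0 and 4. Immediate early genes (12) counted 0 higher and 3 lower, then 0 and 0.

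The level of the 125 genes taken as a set differed between libraries, and the lower T2 values follow from the rule. With each gene centred on the mean of its 3 group medians, the median over the 125 was 0.12 to 0.46 at T0, -0.30 to 0.48 at T1 and -1.59 to -0.21 at T2, while the median over the 7199 genes within the limits stayed between -0.06 and 0.06. Library m3 was the low T1 value and the next T1 library stood at 0.30, so m3 (T1) lay below the highest T2 library, m15. Within T2, m17 (-1.59) and m16 (-1.15) were the lowest. Library m17 was the lowest T2 library in 85 of the 125 genes and m16 in 21, whereas m3 was the lowest T1 library in 94. The 125 genes took 0.186% to 0.382% of all counts at T0, 0.134% to 0.314% at T1 and 0.0593% to 0.222% at T2.

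The spread between libraries of a time point was wider at T2. The median standard deviation of log2 CPM over the 125 genes was 0.29 at T0, 0.36 at T1 and 0.55 at T2, beside 0.26, 0.27 and 0.28 over the genes within the limits. Counting error is larger at the lower T2 levels, and its part in this spread was not tested. As a description, the median pairwise correlation of deviations from the time-point mean was 0.49 between the 125 genes over 23 libraries and -0.00188 between genes within the limits. All pairs share the same libraries and their scaling. The rule chose genes that were low in the same T2 libraries, which can raise their correlation, so genes within the limits are no like comparison. The correlation between the 125 genes was 0.59 over the 10 T2 libraries, 0.40 over the 13 earlier ones, and 0.14 over 12 earlier ones without m3. Without m3, m16 and m17 (20 libraries) it was 0.21. Refitted without m16 and m17, 108 of the 125 were lower than at T1, where 11.1% of genes tested were, and 102 lower than at T0, where 5.26% were (edgeR), with medians of -0.83 and -0.83. These counts too follow from the rule, which chose the genes with m16 and m17 included. Applied anew without m16 and m17, the rule found 61 genes, 60 of them among the 125, and without m17 alone it found 88, all among them.

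The 125 genes were long. Their median span from start to end was 61.7 kb (quartiles 37.6 and 114), beside 20.7 kb (7.87 and 48.3) for the other 7074 genes within the limits. Span entered the rule only as the upper limit of 300000 bases. The share of genes that were members was 0.273% (6 of 2195) under 10 kb, 0.967% (21 of 2172) at 10 to 30 kb, 2.87% (60 of 2090) at 30 to 100 kb and 5.12% (38 of 742) at 100 to 300 kb. The median difference of all genes in these classes, members included, was 0.13, 0.03, -0.10 and -0.20 when T2 was set against T1, and 0.18, 0.05, -0.09 and -0.19 against T0. Long genes outside the 125 stood lower relative to short ones at T2. Their centred median, 100 to 300 kb minus under 10 kb, was 0.04 to 0.21 at T0, -0.345 to 0.23 at T1 and -0.52 to -0.04 at T2, lowest in m3 at T1 and in m16 at T2.

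**Figure D4:**
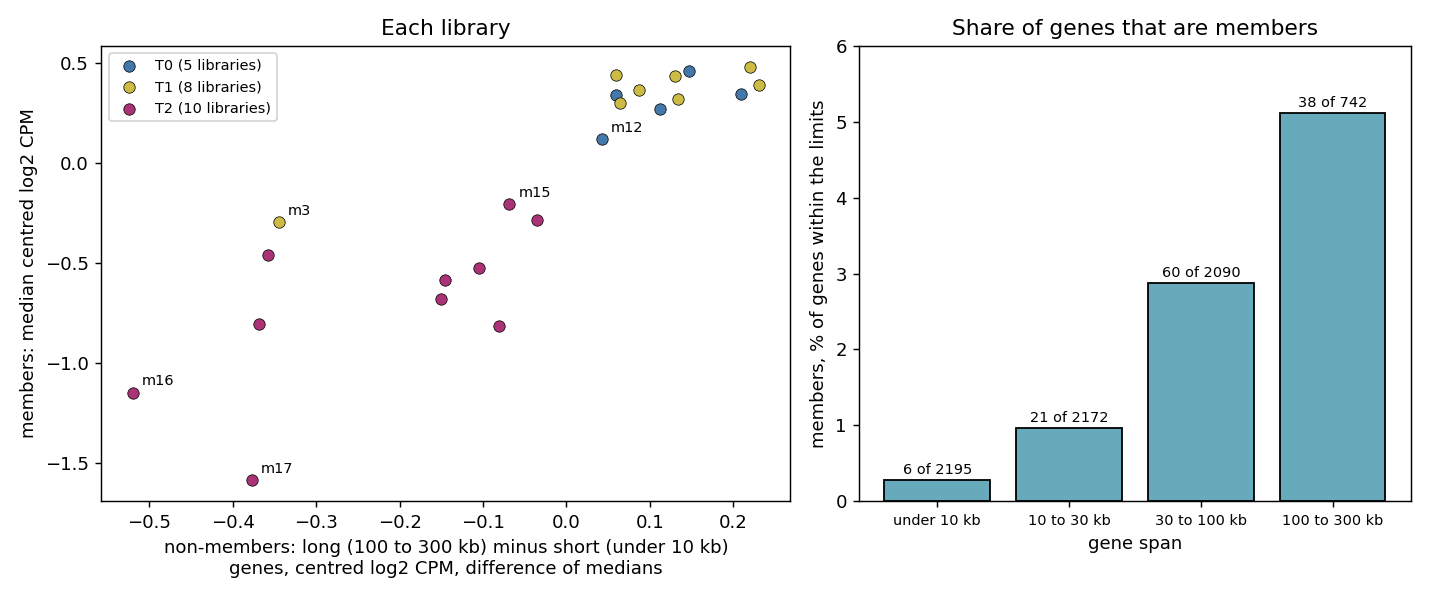
Left, 1 point per library: the centred log2 CPM of long minus short genes outside the 125 (horizontal axis) against the median centred log2 CPM of the 125 genes (vertical axis). Right, bars from 0: the share of genes within the limits that were members, by gene span, from 0.273% to 5.12%.

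With the trend of log2 CPM on gene span removed in each library, the median difference of group medians over the 125 genes went from -1.03 to -0.91 against T1 and from -0.98 to -0.87 against T0. The rule applied to these values found 77 genes, 66 of them among the 125. The slope of the trend per 10-fold span was 0.04 to 0.18 at T0, -0.22 to 0.20 at T1 and -0.31 to 0.04 at T2. RNA was selected for integrity before sequencing, and no integrity value for a single library was used here. The part of RNA quality in these values was not tested.

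Fibre type varied between libraries of one time point, which the group medians of the rule did not use. The slow minus fast score, the mean log2 CPM of slow fibre genes minus that of fast ones, was -5.01 to -3.18 at T0, -2.04 to 3.75 at T1 and -4.24 to -2.21 at T2, so T1 lay above the other time points. With time point in the model, 4 of the 125 passed with a slope on the score below 0 and 0 passed with a slope above 0, where 1.91% and 3.87% of genes tested did (edgeR, adjusted p below 0.05). The log2 slope per unit of score was -0.63 ± 0.14, adjusted p = 0.0104 for AK4, -0.35 ± 0.09, adjusted p = 0.0203 for NUAK1, -0.26 ± 0.07, adjusted p = 0.0243 for LRP1 and -0.37 ± 0.10, adjusted p = 0.0282 for FBXL18. All 4 calls ended without T1 library m3, at -0.26 (adjusted p = 0.543), -0.23 (0.53), -0.19 (0.519) and -0.53 (0.119), and that of FBXL18 also without m11 (0.0508) or m13 (0.0633). Of the 125 slopes, 106 were below 0, with a median of -0.08, and without m3 45 were, with a median of 0.04. Without m17, 8 of the 125 passed with a slope below 0 and 0 above 0, where 2.97% and 5.95% of genes did. Without m16 and m17, 14 passed below 0 and 0 above 0, where 3.77% and 7.06% did (edgeR).

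**Figure D5:**
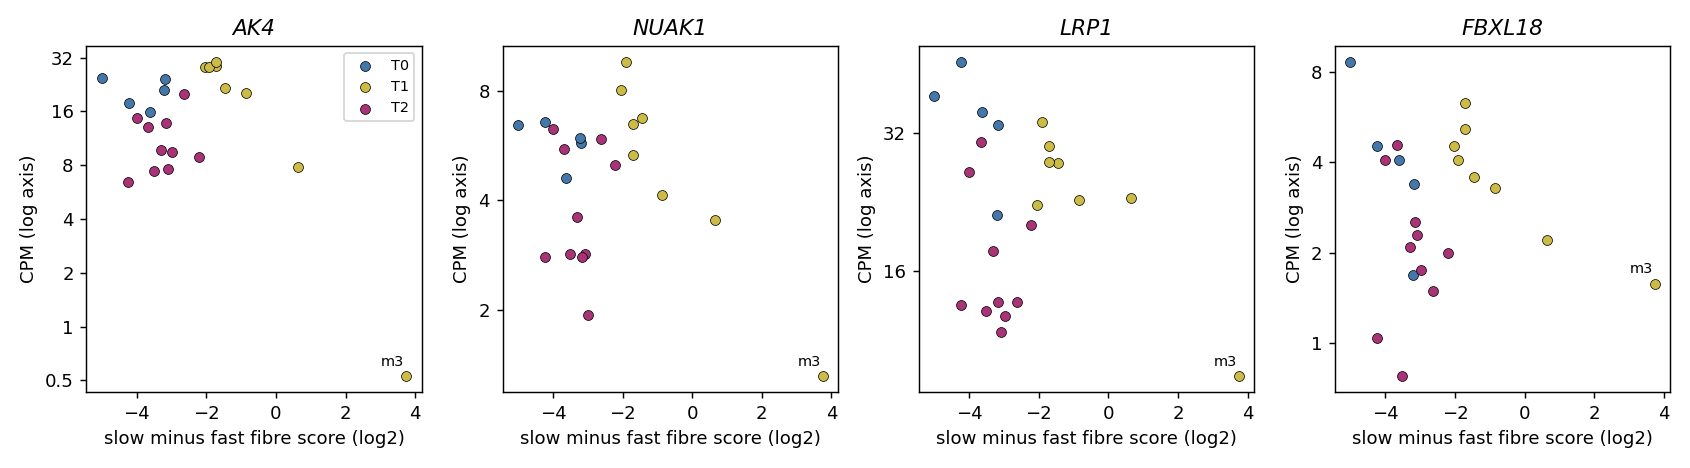
CPM on a log axis (vertical) against the slow minus fast fibre score in log2 units (horizontal) for AK4, NUAK1, LRP1 and FBXL18; each point is 1 library, coloured by time point. The T1 library m3, at a score of 3.75, lies far to the right of the others, and AK4 stands at 0.525 CPM in it.

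With the score as a covariate, 114 of the 125 were lower in T2 than in T1, where 11.4% of genes tested were lower, and 114 lower than in T0, where 7.65% were (edgeR). The rule chose the genes by these contrasts, so nothing is read from the counts. In this model the T2 minus T1 difference was -2.08 for AK4, -1.61 for FBXL18, -1.25 for NUAK1, -1.12 for LRP1 and -1.04 for NFIX, further from 0 than without the score. The same model's T1 minus T0 difference was 1.56 for AK4, 0.93 for FBXL18, 0.91 for NUAK1 and 0.81 for SCD. Its median over the 125 genes was 0.26, against 0.01 without the score. In this T1 minus T0 comparison 0 of the 125 passed, where 0.0173% of genes tested did, against 6.91% without the score (edgeR). Nothing about the 125 genes is read from that 0. Scores at T1 (-2.04 to 3.75) did not overlap those at T0 (-5.01 to -3.18) or T2 (-4.24 to -2.21). The differences with the score in the model therefore extend the slope to scores that the groups did not share. The median slope over the 125 genes was -0.08, and 0.04 without m3. These differences were not computed without m3, and nothing is read from them.

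Sex was also not used by the rule, but the sexes were unevenly spread over the time points it compared. Between females and males, with time point in the model, 0 of the 125 and 0 of 11545 genes passed (edgeR, 0% called), with 5 of the 125 and 719 of all genes at an unadjusted p below 0.05, and DESeq2 called 0 of the 125 and 1 gene in all. The smallest adjusted p among the 125 was 0.776. With unadjusted p-values of edgeR, the female minus male log2 difference was 1.43 ± 0.60 (p = 0.0271) for SCD, 0.40 ± 0.17 (p = 0.0267) for FOXO3 and -0.40 ± 0.17 (p = 0.0221) for AMER1. The median female minus male difference over the 125 genes was 0.09, and 0.01 without m15, 0.03 without m3 and 0.20 without m17. The fall from T1 to T2 did not differ between the sexes past the threshold in any of the 125 (edgeR interaction, 0% of genes called), with 0 of the 125 and 179 of all genes at an unadjusted p below 0.05, and DESeq2 called 0 of the 125 and 3 genes in all. The interaction estimate was below 0 in 103 of the 125 (82.4%, beside 47.6% of all genes tested), with a median of -0.21. Without m17, 1 of the 3 female T2 libraries, it was below 0 in 47, with a median of 0.07.

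The 125 genes were spread over the chromosomes, with 10 on chromosome 1, 9 on chromosome 10, 8 each on chromosomes 7 and 14, 5 on X and 0 on chromosomes 17 and 26. In 6 pairs the genes lay within 1000000 bases of each other. FBXL18 (chromosome 13, 2472540 to 2510292) and TNRC18 (2597657 to 2629852) were 87365 bases apart, and CASZ1 (chromosome 2, 40705885 to 40759520) and KIF1B (40977063 to 41090895) 217543 apart. NBEAL1 and RAPH1 on chromosome 18 were 230295 apart, RICTOR and LIFR (chromosome 21, 27117910 to 27162753) 324671, MAP1B and BDP1 on chromosome 14 389409, and BAHCC1 and RNF213 on chromosome 11 882063. Of the 125 genes, 98 had 1 annotated transcript. KIF1B alone had 2 transcripts with a name, and both were lowest at T2.

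The authors' deposited table for T2 against T1 listed all 125 genes, 119 of them lower at an adjusted p below 0.05, where 18.6% of its 9628 genes were lower. In the authors' deposited table for T2 against T0, 116 of 124 listed genes were lower, where 11.7% of genes were. For T1 against T0, 2 of 124 were lower and 3 higher in the authors' deposited table, where 5.59% of genes were lower and 6.72% higher. The median log2 fold changes of the listed genes in the authors' deposited tables were -0.89, -0.83 and 0.01, and they come from the same libraries. The rule used the same comparisons, so these counts and medians follow from it and nothing is read from them.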

How the data were processed

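RNA of 23 biopsies was sequenced with 50 cycles and 6 technical repetitions, per the labels. The labels name the TruSeq RNA Kit v2, which keeps no strand, so reads of overlapping antisense genes cannot be told apart. The authors deposited expected counts per gene and transcript, whole numbers in the files; per the submitters' processing notes the tools were FastQC, STAR, RSEM and DESeq2, with no version. Neither the genome build nor any setting is given in the sources used here. Comparison tables as deposited hold the authors' log2 fold change with its standard error, p-value and adjusted p-value. They also hold, per the file headers, the authors' mean normalized count (a signal) and the test statistic (a score), which was not used. Their letters for groups were matched to time points by this mean count, which differed by a median of 0.4%, 0.27% and 0.41% from the chosen pairs and by at least 5.8%, 9.8% and 5.6% from any other. Symbols, types and coordinates came from these tables.

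Genes were filtered with filterByExpr (minimum count 10, minimum total 15), TMM-scaled and put into 1 model of the 3 groups with edgeR 4.0.16 in R 4.3.3 (robust quasi-likelihood test, Benjamini-Hochberg adjustment over 11545 genes, threshold 0.05). CPM used TMM-scaled totals and log2 CPM a prior count of 2. CPM is not divided by gene length, so levels are not compared between genes. Sex and the fibre score were each added to time point in the model. The genes, gene lists and markers were chosen with earlier results of these data known. Full values are given for the 12 largest falls, the 8 highest T1 medians, genes on a fixed list, genes called for sex or fibre score, and neighbours; further genes in the role groups were named after their values were seen. Alternatives were RLE factors, no filter, DESeq2 1.42.0, limma 3.58.1 voom with weights, a fit that was not robust, the fibre score or sex as a covariate, 2 time points only, a prior count of 0.5, group means, other thresholds, and leaving out libraries. Removing the span trend, thinning to the smallest total, and leaving out m16 and m17 were chosen after seeing the data. Counting error follows from totals of at least 12185608 per library. Figures used matplotlib 3.10.9. Promoter and protein sequences were not used here.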

Additional observations from a re-analysis of the deposited data

Results flagged for a closer look

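In groups of 5, 8 or 10 libraries, a value was singled out when its gap to the next was large for the group's range (Dixon's 95% critical value). Of 126 groups checked, 117 of them from 39 named genes, 13 held such a value, and chance alone gives about 1 in 20.

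T1 library m3 accounted for 10 of the 13. It had the lowest T1 level of AK4 (0.525 CPM, next 7.82 in m11), ASH1L (23.8, next 33.3 in m5), CLOCK (2.36, next 4.45 in m5), FOXO3 (5.78, next 9.74 in m5), HIPK3 (89.9, next 142 in m1), LRP1 (9.45, next 22.2 in m4) and NCOA2 (7.97, next 11.1 in m1). Its median centred log2 CPM over the 125 genes was -0.296 (next 0.299 in m5), and its long genes stood -0.345 from its short genes (next 0.0601 in m4). Its slow minus fast fibre score was 3.75 (next 0.646 in m11).

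T2 library m17 had the lowest T2 level of KIF1B (11.1 CPM, next 23.4 in m16) and of NOTCH1 (1.76, next 4.85 in m18). RNF213 was highest at T1 in m2 (15.5 CPM, next 7.7 in m11).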

How the results depend on the processing

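No paired analysis was possible because the labels do not say whether any libraries came from the same horse. The rule found 125 genes; it found 37 with a fall of at least 1, 61 without m16 and m17, 65 without m3, m16 and m17, and 77 with the span trend removed, and 88 (without m17) to 179 (without m15) when single libraries were left out, 70 of the 125 being found each time. Other settings gave 111 to 143. Of the 125, the count lower than at T1 (115) was 112 to 123 and the count lower than at T0 (115) 99 to 117 without single libraries. The count changed between T0 and T1 (1) was 0 with no filter, with the fibre score, with only 2 time points, and without m3 and m12, 2 by DESeq2 and 3 by limma voom, and 0 to 1 without single libraries. The count with a fibre score slope (4) was 7 by DESeq2, 1 with the score from MYH7 alone, 1 without m3 and m12, 14 without m16 and m17, and 0 (without m3) to 8 (without m17) without single libraries. AK4, NUAK1, LRP1 and FBXL18 passed neither with MYH7 alone nor without m3 and m12. Their lowest adjusted p was that of FBXL18 in each, 0.215 and 0.169 (edgeR). Sex and interaction gave 0 to 0 without single libraries. The causes were not tested. Of 3977 values for named genes, 3950 moved by less than 1 SD or kept their call, 17 moved by more, 10 no longer passed and none that had passed changed sign. The slopes on the score from MYH7 alone are not among the 3977. Between T0 and T1, 75 of 1287 values, all of genes that had not passed, changed sign, in 24 genes. SCD went from -1.22 to 0.66 without m10 and NOTCH3 from -0.29 to 0.26 with the fibre score. Low levels, such as RICTOR in m16 at 0.517 CPM, rest on few counts.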
